A study of Rattus norvegicus with 8 samples.

Results

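The genes described here encode the enzymes of mitochondrial fatty acid oxidation, the peroxisome and ketone body metabolism, with the uptake and regulatory genes around them. They were listed by symbol as 38 genes, and the probe set with the highest mean stood for each symbol on the array. A named probe set was present for 37 of them, out of 15037 named genes and 23188 transcript probe sets in all, and Cd36, which encodes a fatty acid transporter, had none. The study asked how blocking glucose reabsorption relates to the formation of kidney stones. RNA was taken from the renal outer medulla and cortex of male Sprague-Dawley rats, 10 weeks of age, and hybridised to Clariom S arrays. The 4 treatments were ethylene glycol and alfacalcidol with phlorizin (EG with phlorizin below), ethylene glycol and alfacalcidol alone (EG), phlorizin alone (phlorizin), and control. Stones were induced with ethylene glycol, a source of oxalate, together with the vitamin D analogue alfacalcidol over 2 weeks. Phlorizin inhibits the sodium-glucose cotransporters SGLT1 and SGLT2. Each zone and treatment had 1 array, 8 in all, and kidneys were divided into both zones. Whether the arrays of a treatment come from the same animals, the dose of phlorizin and whether RNA of several animals was pooled are not given in the sources used here.

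Fatty acids are activated to acyl-CoA by synthetases, pass into mitochondria through the carnitine shuttle, and are shortened in repeated cycles by a dehydrogenase, a hydratase, a second dehydrogenase and a thiolase. The electron transfer flavoprotein passes the electrons of the first step on to the respiratory chain, peroxisomes shorten chains that mitochondria handle poorly, and ketone bodies serve as a further fuel. Kidney tubules, the proximal tubule and the thick ascending limb above all, have a high energy demand and burn fatty acids, and the nuclear receptor PPAR alpha with the coactivator PGC-1 alpha drives transcription of many of these genes.

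Values are log2 RMA values, so that a difference of 1 is a doubling of the signal, and the levels of different probe sets are not compared. Background probe sets averaged 5.53 to 5.68 per array and transcript probe sets had medians of 7.39 to 7.58. Of the 37 genes, 35 passed the filter that the highest of the 8 values reach 7.54, the median of all deposited values. Fabp1, the liver-type fatty acid binding protein, lay below background on all 8 arrays, between 3.37 and 3.56. Acox2, the branched-chain acyl-CoA oxidase, was above background on 4 of the 8 arrays, and its highest value was 7.15. The zone labels were checked with marker genes. In limma, all 14 tested markers of the first proximal tubule segments were lower in the outer medulla, and 7 of 9 tested markers of the thick ascending limb were higher there. Of 9 tested markers of the straight proximal segment, 6 were called lower in the outer medulla and none higher, with a median of -2.81. Spike-in signals were lowest on the EG array of the cortex, where poly-A controls averaged 6.42, while the other 3 arrays of the cortex had 7.67 to 8.23, and every cortex difference that involves EG without phlorizin rests on it. These are bulk samples, in which fewer cells of a type and less RNA per cell cannot be told apart.

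**Figure D1:**
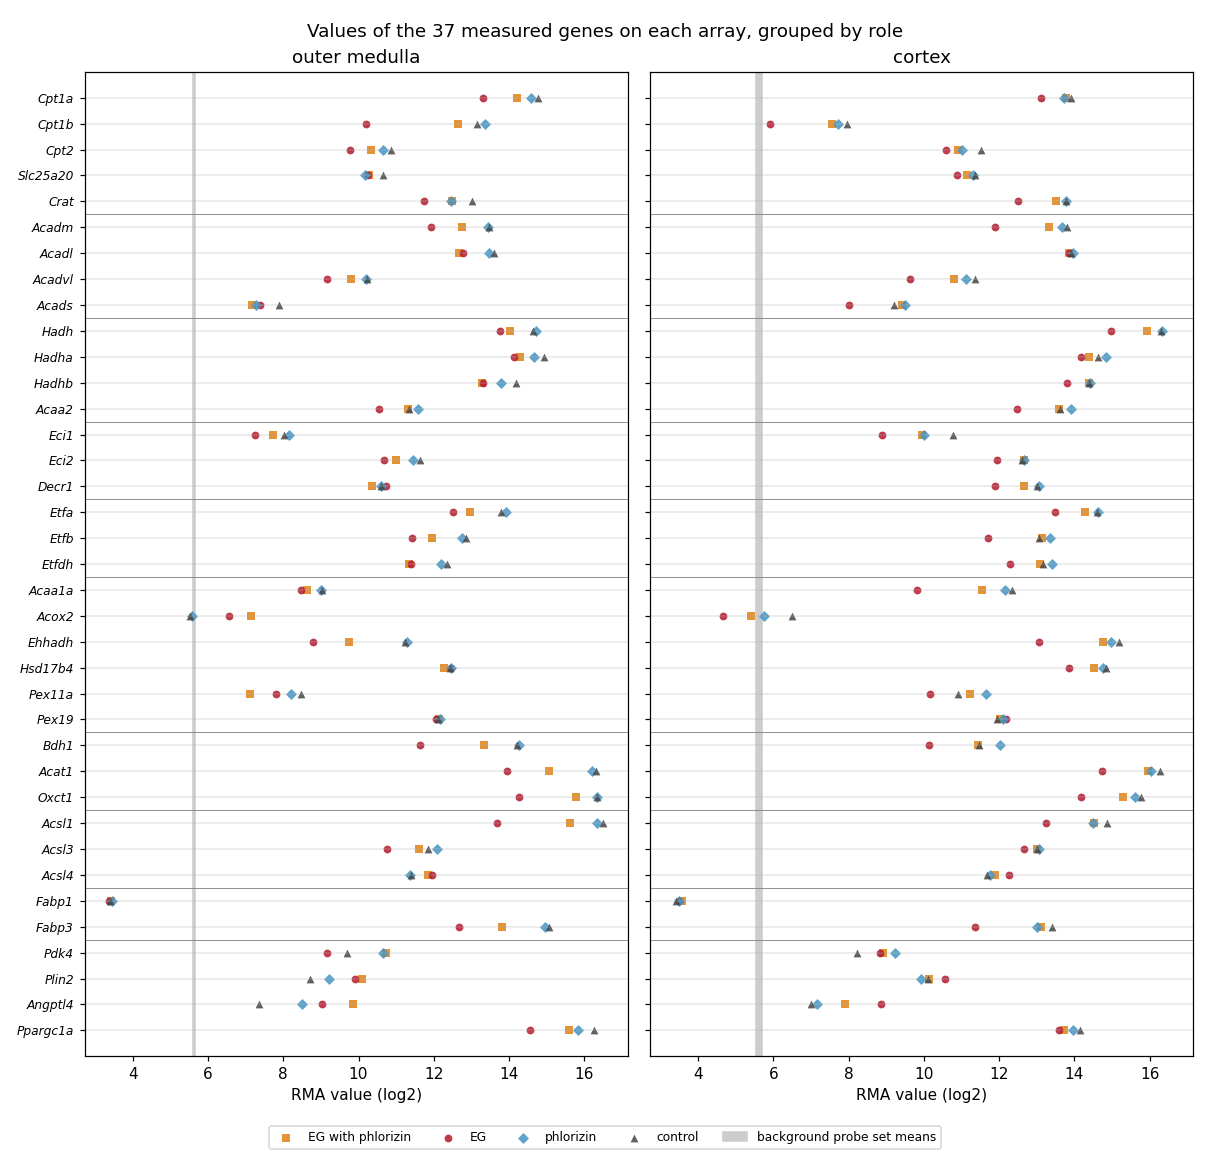
Log2 RMA values of the 37 measured genes on each array, in rows grouped by role, with the outer medulla on the left and the cortex on the right; the grey band spans the means of the background probe sets. The EG array lies furthest to the left for most mitochondrial and ketone body genes, while for Acsl4, Plin2 and Angptl4 it lies to the right of the control array in both zones.

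Promoter windows of 250 bases before to 50 after the start site were available for 33 of the 37 measured genes from RefSeq on rat build GRCr8, as 34 windows. They were searched on both strands for AGGTCA, the half-site bound by PPAR and other nuclear receptors. It was present in 6 of the 34 windows (17.6%), against 16.2% of all 33469 rat promoter windows. The direct repeat AGGTCANAGGTCA was present in 0.0538% of all windows and TCAAGGTCA, a longer motif that contains AGGTCA and is bound by estrogen-related receptors, in 0.433%, and none of the 34 windows held either. A match is a description of letters in the window and not of binding. Of the 6 windows with a match, those of Hadhb and Acadvl, genes of the mitochondrial pathway, are shown as examples. Both genes had lower signals with EG in both zones, as did most genes of the list. A link between the motif and EG was not tested. Hadhb shares a divergent start region with Hadha, the start sites lying 301 bases apart on chromosome 6, and Acadvl holds 2 matches. Capitals mark AGGTCA, or TGACCT where it lies on the opposite strand.
Hadhb, chr6:31907451-31907750, minus strand, GRCr8: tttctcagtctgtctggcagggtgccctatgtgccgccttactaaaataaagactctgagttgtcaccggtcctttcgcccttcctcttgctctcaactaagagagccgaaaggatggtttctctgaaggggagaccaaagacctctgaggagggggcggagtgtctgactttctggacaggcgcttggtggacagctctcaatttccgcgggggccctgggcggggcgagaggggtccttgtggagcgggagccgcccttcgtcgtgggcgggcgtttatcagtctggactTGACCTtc
Acadvl, chr10:55236656-55236955, minus strand, GRCr8: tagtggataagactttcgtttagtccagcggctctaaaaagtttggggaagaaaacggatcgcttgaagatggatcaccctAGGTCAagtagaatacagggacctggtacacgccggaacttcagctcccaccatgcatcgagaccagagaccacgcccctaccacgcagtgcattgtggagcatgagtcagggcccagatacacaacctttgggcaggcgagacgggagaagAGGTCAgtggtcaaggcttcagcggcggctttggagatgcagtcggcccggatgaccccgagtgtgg

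The zones differed in the signal levels of parts of the pathway. The tested peroxisomal genes other than Pex19 and most mitochondrial enzymes had lower signals in the outer medulla, and both carnitine palmitoyltransferases of the outer mitochondrial membrane, the ketone body enzymes Bdh1 and Oxct1, Acsl1, Fabp3 and the regulators Ppargc1a, Pdk4 and Angptl4 had higher signals there. Of the 35 tested genes, limma called 9 higher and 21 lower in the outer medulla at an adjusted p under 0.05, over 4 treatments as a block, against 32.7% higher and 18.8% lower among all 13163 tested probe sets. The median zone difference of the 35 genes was -0.70, and that of all tested probe sets was 0.18. Acat1, Acadm, Acsl4, Hadha and Pex19 were not called, with differences of -0.37, -0.28, -0.25, -0.00 and 0.05.

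Cpt1b, the muscle isoform of the enzyme that commits fatty acids to mitochondria, had 12.64, 10.20, 13.35 and 13.16 in the outer medulla under EG with phlorizin, EG, phlorizin and control, against 7.56, 5.91, 7.72 and 7.95 in the cortex. The zones did not overlap, and the difference was 5.05 (SE 0.23, limma adjusted p = 2.35e-05), the largest of the 35 genes in either direction. Of 10 muscle markers 2 to 5 were above the background mean on each array, and none passed the filter on dim probe sets. Of 5 tested adipose markers 4 were called higher in the outer medulla and 1 lower. The log2 of the summed signals of that list, which its brightest genes dominate, was 13.76 to 14.96 in the outer medulla and 10.80 to 11.41 in the cortex. The mean of its log2 values was 7.38 to 7.7 in the outer medulla and 6.23 to 6.79 in the cortex. The part of this list in the difference of Cpt1b was not tested. Cpt1a, the liver isoform of the same step, was also higher in the outer medulla, but by 0.60 (SE 0.17, limma adjusted p = 0.024), and it was not called when any single treatment other than EG was left out (limma adjusted p = 0.0651 to 0.108). Cpt2, on the inner membrane, and Slc25a20, the carnitine-acylcarnitine translocase, had differences of -0.60 and -0.83, and Crat, the carnitine acetyltransferase, of -0.97. Cpt2 was not called without the arrays of EG with phlorizin or of control (limma adjusted p = 0.0513 and 0.0557). The members of the shuttle thus ran in opposite directions between zones.

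Ehhadh, the peroxisomal bifunctional enzyme of straight chains, had 9.74, 8.80, 11.28 and 11.24 in the outer medulla under EG with phlorizin, EG, phlorizin and control, against 14.77, 13.06, 14.98 and 15.19 in the cortex. The zones did not overlap, and the difference of -4.24 (SE 0.23, limma adjusted p = 4.66e-05) was the lowest of the list. Pex11a, which promotes elongation and division of peroxisomes, had a difference of -3.08, the peroxisomal thiolase gene Acaa1a of -2.68, and Hsd17b4, the bifunctional enzyme of branched chains, of -2.10. Pex19, a chaperone for peroxisomal membrane proteins, differed by 0.05 (SE 0.14, limma adjusted p = 0.755). Acox2, the branched-chain acyl-CoA oxidase, did not pass the filter on dim probe sets, and its outer medulla minus cortex differences were 1.76 under EG with phlorizin, 1.89 under EG, -0.18 under phlorizin and -0.97 in control. Of 30 other tested peroxisomal genes, limma called 21 lower and 1 higher in the outer medulla. These zone differences accompany the lower first-segment proximal markers, and the part of cell composition in them was not tested. The log2 of the summed signals of those markers was 13.04 to 14.53 in outer medulla and 20.12 to 21.02 in cortex.

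Later mitochondrial enzymes had zone differences between -2.21 and -0.00. The thiolase gene Acaa2 differed by -2.21, the isomerase genes Eci1 and Eci2 by -2.12 and -1.28, the reductase gene Decr1 by -2.08 and Hadh, the hydroxyacyl-CoA dehydrogenase, by -1.60. Hadha and Hadhb encode the alpha and beta subunits of the trifunctional protein from the divergent start region shown above. Hadhb was called lower in the outer medulla at -0.61 (SE 0.18, limma adjusted p = 0.0286) and Hadha was not, at -0.00 (SE 0.15, limma adjusted p = 0.982). The call for Hadhb was lost without the arrays of EG with phlorizin or of phlorizin (limma adjusted p = 0.109 and 0.0953). The electron transfer flavoprotein genes Etfa, Etfb and Etfdh were called lower, at -0.96, -0.57 and -1.16, and Etfb was not called when any single treatment other than EG was left out (limma adjusted p = 0.0625 to 0.158), nor without the filter on dim probe sets (limma adjusted p = 0.0578). The dehydrogenase gene Acadl, called lower at -0.76, was not called without the arrays of EG with phlorizin (limma adjusted p = 0.0737).

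Of the 3 ketone body genes limma called 2 higher in the outer medulla, and of 4 PPAR targets and regulators 3 higher and 1 lower. Of 7 other tested ketone genes 2 were called higher and 5 lower, with a median of -1.26, and of 13 PPAR and coregulator genes 3 higher and 4 lower. Bdh1, which interconverts acetoacetate and hydroxybutyrate, had 13.33, 11.63, 14.26 and 14.22 in the outer medulla under EG with phlorizin, EG, phlorizin and control, against 11.43, 10.13, 12.03 and 11.47 in the cortex. The outer medulla was higher under every treatment, by 2.10 in the fit (SE 0.22, limma adjusted p = 0.000465). Ppargc1a, encoding PGC-1 alpha, was higher by 1.70, the heart-type binding protein gene Fabp3 by 1.41, the synthetase gene Acsl1 by 1.26 and Pdk4, which encodes an inhibitor of pyruvate dehydrogenase, by 1.26. Oxct1, which starts the use of ketone bodies outside the liver, was higher by 0.47 and Angptl4, which encodes an inhibitor of lipoprotein lipase, by 0.95. Oxct1 and Angptl4 were not called after centring each array, nor when any single treatment other than EG was left out (limma adjusted p = 0.122 to 0.174 and 0.0508 to 0.133). The call was also lost for Oxct1 without the filter (limma adjusted p = 0.0596) and for Angptl4 after quantile normalization (limma adjusted p = 0.0558). Plin2, called lower at -0.70, was not called without the control or the phlorizin arrays (limma adjusted p = 0.135 and 0.111). Ppara, encoding PPAR alpha itself, ran the other way, with a difference of -2.10 (limma adjusted p = 0.00273).

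**Figure D2:**
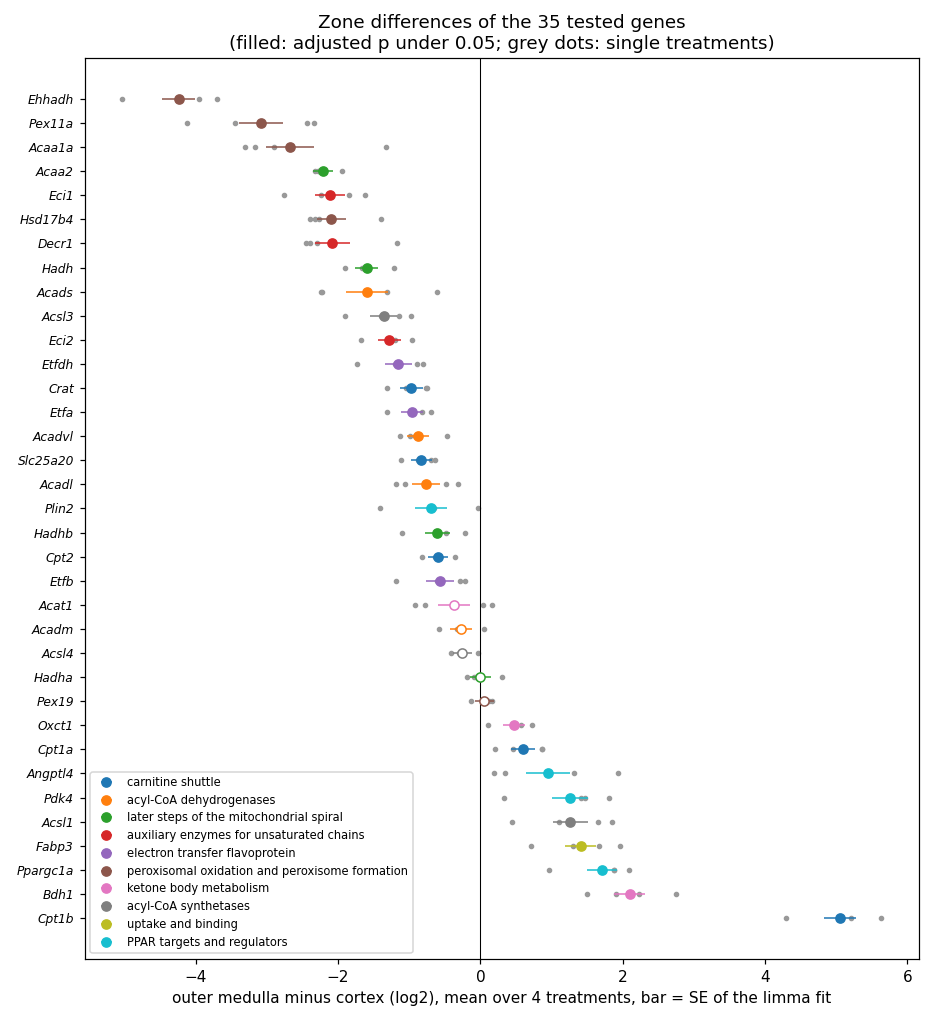
Zone differences of the 35 tested genes on the log2 scale (outer medulla minus cortex), ordered by size and coloured by role; large points are means over 4 treatments with the SE of the limma fit, filled where the adjusted p is under 0.05, and grey dots are single treatments. Ehhadh, Pex11a and Acaa1a stand at the top and Cpt1b, at 5.05, stands alone at the bottom.

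EG was accompanied by lower signals of most mitochondrial oxidation genes, the ketone body genes and Fabp3 in both zones, and by higher signals of Angptl4, Plin2 and Acsl4. Against control, 16 of 35 genes were lower by 1 or more and 2 higher by 1 or more in the outer medulla, where 9.69% of all tested probe sets were that much lower and 8.58% that much higher. In the cortex 18 were lower by 1 or more and 1 higher by 1 or more, against 12.7% and 9.66% of all probe sets. In both zones at once 12 were lower by 1 or more and 1, Angptl4, higher by 1 or more, against 4.47% and 4.9%. By any amount, 28 genes were lower and 3 higher in both zones, against 39.0% and 31.6%. The medians of the 35 genes were -0.96 in outer medulla and -1.10 in cortex, and those of all tested probe sets -0.05 and -0.07. Each of these differences sets 1 array against 1 array and carries no test. Values paired for a gene are those of the outer medulla and of the cortex, in that order.

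A test was possible over the 4 treatments after averaging the zones, with EG and phlorizin as additive terms and 1 residual degree of freedom. That degree of freedom is the interaction of EG with phlorizin. A gene whose EG difference changed under phlorizin thus had a larger SE, and the p-values do not measure spread among replicates. At an adjusted p under 0.05 limma called 0 of the 35 genes, against 0.038% of all tested probe sets, and at an unadjusted p under 0.05 it gave 2 higher and 18 lower, against 9.85% and 12.9%. The lowest adjusted p belonged to Angptl4, with an EG effect of 1.41 (SE 0.25, limma adjusted p = 0.0809), followed by Ehhadh at -1.58 (SE 0.36, limma adjusted p = 0.0943) and Bdh1 at -1.36 (SE 0.32, limma adjusted p = 0.0994). In the outer medulla arrays alone, Angptl4 at 1.52 and Ehhadh at -1.99 were called (limma adjusted p = 0.0406 each). All tested probe sets had 1.8% called higher and 0.896% lower in that fit. The cortex arrays alone gave 0 of the 35 genes, against 0.0532% of all probe sets. With all 8 arrays and the treatment as a random block, 11 genes were called lower and 1 higher, against 6.55% and 6.31% of all probe sets. The correlation estimated between the zones of a treatment was -0.10 in that fit, so the block did not widen the errors. The zones thus counted as separate samples there, although they can share animals.

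Several marker lists moved with EG as well. All 9 tested tubule injury markers and 12 of 14 tested macrophage markers were higher by 1 or more in both zones than in control, and 7 of 9 thick ascending limb markers and 4 of 5 red cell markers were lower by 1 or more. The log2 of the summed signals of the macrophage list was 17.62 under EG and 15.93 in control in the outer medulla, and 17.17 under EG and 14.78 in control in the cortex. Above background were 15 of its 15 markers under EG and 13 in control in each zone. For the thick ascending limb list the log2 of the summed signals was 19.11 under EG and 20.49 in control in the outer medulla, and 16.15 under EG and 18.59 in control in the cortex. In the cortex 6 of 9 straight proximal segment markers were lower by 1 or more, with a median of -2.76, while their median in the outer medulla was 0.25. The part of these lists in the differences of the oxidation genes was not tested.

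In the carnitine shuttle all 5 genes had lower signals under EG than in control in both zones, with medians of -1.27 in outer medulla and -0.92 in cortex. Cpt1b differed most, by -2.96 and -2.04, which is 0.128 and 0.244 of its control signal. The EG value of 5.91 in the cortex lies near the background mean of that array, 5.53. Cpt1a had 14.22, 13.32, 14.57 and 14.76 in the outer medulla under EG with phlorizin, EG, phlorizin and control, and 13.77, 13.11, 13.71 and 13.90 in the cortex. EG was the lowest value in each zone, and the differences from control were -1.44 and -0.79. Crat differed by -1.27 and -1.29, and Slc25a20 by -0.42 and -0.47, the smallest of the group in each zone.

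Acyl-CoA dehydrogenases take the first oxidising step, each for a range of chain lengths. Acadm, for medium chains, had 12.75, 11.93, 13.43 and 13.47 in the outer medulla under EG with phlorizin, EG, phlorizin and control, and 13.33, 11.88, 13.68 and 13.79 in the cortex. EG was lowest in each zone, with differences of -1.54 and -1.91 from control. The gene for very long chains, Acadvl, differed by -1.07 in outer medulla and -1.74 in cortex, and Acads, for short chains, by -0.49 and -1.20. Acadl, for long chains, stood apart from the other 3 in the cortex, with 13.85, 13.85, 13.96 and 13.90 on the arrays of EG with phlorizin, EG, phlorizin and control. In the outer medulla, in the same order, Acadl had 12.67, 12.79, 13.48 and 13.59, so that both EG arrays there were lower than both others.

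The later steps of the spiral had EG differences of -0.88 to -0.80 in outer medulla and -1.32 to -0.44 in cortex. Hadha and Hadhb ran close together under EG, at -0.80 and -0.87 in outer medulla and -0.44 and -0.60 in cortex. Hadha had 14.29, 14.12, 14.65 and 14.92 in the outer medulla under EG with phlorizin, EG, phlorizin and control, and 14.38, 14.18, 14.84 and 14.62 in the cortex. In the same treatment order, its partner Hadhb had 13.28, 13.31, 13.79 and 14.18 in outer medulla, and 14.37, 13.79, 14.42 and 14.39 in cortex. Both subunits were lower on the EG arrays of the outer medulla, with or without phlorizin. In the cortex the difference of Hadhb between EG with phlorizin and phlorizin was -0.05. Hadh differed by -0.88 and -1.32 and Acaa2 by -0.81 and -1.14. For unsaturated chains, Eci1 differed by -0.76 and -1.90, Eci2 by -0.97 and -0.64, and Decr1 by 0.13 and -1.10.

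All 3 electron transfer flavoprotein genes had lower signals under EG in both zones. Etfb had 11.94, 11.42, 12.74 and 12.85 in the outer medulla under EG with phlorizin, EG, phlorizin and control, and 13.13, 11.71, 13.35 and 13.06 in the cortex. Its differences from control were -1.43 and -1.35, those of Etfa -1.28 and -1.11, and those of Etfdh, which hands the electrons to ubiquinone, -0.96 and -0.88. In the outer medulla EG with phlorizin and EG both lay below phlorizin and control for all 3 genes. In the cortex only the EG array did so for Etfb, where EG with phlorizin lay between control and phlorizin.

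Among peroxisomal genes the EG differences varied. Ehhadh had a lower signal under EG in both, with differences of -2.43 in outer medulla and -2.13 in cortex. Acaa1a had 8.64, 8.48, 9.00 and 9.04 in the outer medulla under EG with phlorizin, EG, phlorizin and control, and 11.54, 9.81, 12.16 and 12.35 in the cortex. Its difference from control was -0.56 in outer medulla and -2.54 in cortex, the lowest of the 35 genes there. Hsd17b4 differed by 0.02 and -0.99 and Pex11a by -0.67 and -0.76. Pex19 differed by -0.06 and 0.24, while its second and dimmer probe set, made for another transcript, had 6.82 under EG against 7.61 in control in outer medulla and 6.79 against 7.62 in cortex. Among 30 other peroxisomal genes, 2 were lower by 1 or more and 1 higher by 1 or more in the outer medulla. All tested probe sets had 9.69% and 8.58% there. In the cortex 14 of the 30 were lower by 1 or more, against 12.7%. In limma 0 of these 30 were called for EG and 11 lay at an unadjusted p under 0.05, all lower, against 12.9%. For unequal EG effects between the zones limma called 0 of the 5 tested peroxisomal genes and 0 of the 30 others. At an unadjusted p under 0.05 it gave 0 of the 5 and 4 of the 30, against 12.4% of all probe sets.

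The 3 ketone body genes were lower by more than 1 in both zones. Bdh1 differed by -2.59 in outer medulla and -1.34 in cortex, Acat1, the mitochondrial acetoacetyl-CoA thiolase, by -2.37 and -1.55, and Oxct1 by -2.07 and -1.61. Acat1 had 15.05, 13.95, 16.20 and 16.31 in the outer medulla under EG with phlorizin, EG, phlorizin and control, and 15.96, 14.72, 16.03 and 16.27 in the cortex. In the same treatment order, Oxct1 had 15.78, 14.27, 16.34 and 16.34 in outer medulla, and 15.30, 14.16, 15.61 and 15.78 in cortex. For both genes EG was lowest and EG with phlorizin next to it in each zone. Slc16a7, which encodes a monocarboxylate transporter, differed by -2.72 and -2.19, the lowest of 7 other tested ketone genes when ranked by the zone with the smaller difference.

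Activation and binding of fatty acids showed opposite directions within a family. Acsl1, the main synthetase for oxidation, had 15.62, 13.69, 16.34 and 16.51 in the outer medulla under EG with phlorizin, EG, phlorizin and control, and 14.52, 13.25, 14.48 and 14.86 in the cortex. Its difference from control was -2.82 in outer medulla and -1.61 in cortex. Acsl4, which prefers arachidonic acid, had in the same treatment order 11.86, 11.96, 11.36 and 11.41 in outer medulla and 11.88, 12.25, 11.77 and 11.68 in cortex. Both EG arrays of Acsl4 were higher than both others in each zone, with differences from control of 0.55 and 0.57. Acsl3, found at lipid droplets, differed by -1.09 and -0.33. Again in that order, Fabp3 had 13.81, 12.66, 14.97 and 15.07 in outer medulla and 13.10, 11.35, 13.01 and 13.41 in cortex, differences from control of -2.41 and -2.06.

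The last group holds known targets and a coactivator of PPAR signalling. Angptl4 had 9.85, 9.04, 8.49 and 7.35 in the outer medulla under EG with phlorizin, EG, phlorizin and control, and 7.91, 8.85, 7.17 and 7.01 in the cortex. Both EG arrays were higher than both others in each zone, with differences from control of 1.69 and 1.85. Plin2, a lipid droplet coat protein, had in the same treatment order 10.10, 9.91, 9.23 and 8.71 in outer medulla and 10.13, 10.56, 9.93 and 10.12 in cortex, so that its difference of 1.20 in the outer medulla stood beside 0.44 in the cortex. Ppargc1a, again in that order, had 15.59, 14.55, 15.83 and 16.24 in outer medulla and 13.72, 13.59, 13.95 and 14.16 in cortex, with differences of -1.69 and -0.57. Pdk4 differed by -0.53 and 0.61. Ppara differed by -2.74 and -3.79, and of 13 tested PPAR and coregulator genes 4 were lower by 1 or more and none higher by 1 or more in each zone. Among these, Esrrb differed by -3.62 and -1.20 and Klf15 by -1.59 and -1.80. Pparg, Esrra and Hnf4a differed by less than 1 in each zone, Pparg by -0.21 and 0.62, Esrra by -0.51 and -0.25, and Hnf4a by 0.80 and -0.66.

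Whether EG differences were unequal between zones was tested on the outer medulla minus cortex differences of the 4 treatments. Limma called 0 of the 35 genes and 0 of the 13163 probe sets. At an unadjusted p under 0.05 it gave Acsl1, Acat1, Cpt1b and Acadl with a more negative effect in the outer medulla (-0.98, -0.95, -0.73 and -0.72) and Plin2 with a more positive effect there (0.71), against 12.4% of all probe sets. The adjusted p of these 5 genes in limma was between 0.329 and 0.397.

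**Figure D3:**
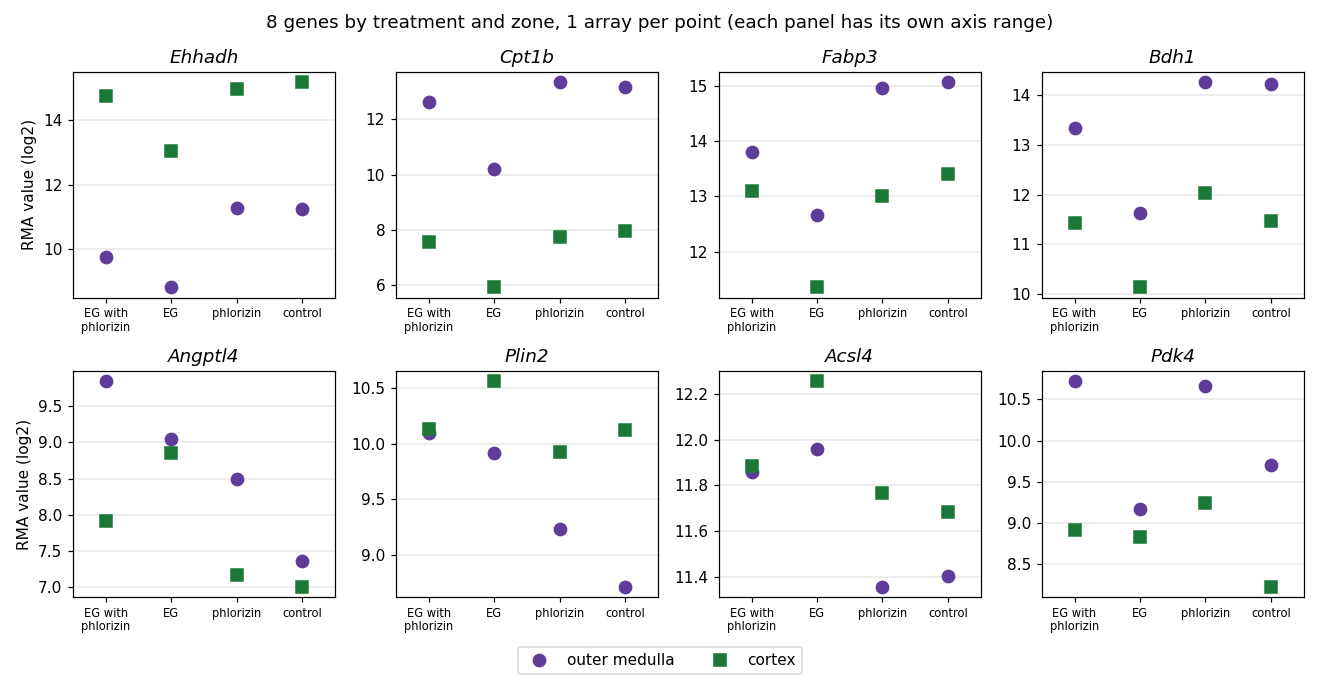
Log2 RMA values of 8 genes by treatment, circles for the outer medulla and squares for the cortex, 1 array per point, with a separate axis range per panel. Ehhadh, Cpt1b, Fabp3 and Bdh1 are lowest under EG in each zone, Angptl4 and Acsl4 are higher on both EG arrays than on both others, and Pdk4 is higher under phlorizin than in control.

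Under phlorizin the EG differences were smaller for most of the genes. EG with phlorizin against phlorizin gave 1 gene higher by 1 or more and 4 lower by 1 or more in the outer medulla, where 3.65% and 3.01% of all probe sets were so. In the cortex 0 of the 35 genes were 1 or more apart in either direction, against 2.43% higher and 1.55% lower. No gene passed in both zones, against 0.995% higher and 0.319% lower. The medians were -0.45 in outer medulla and -0.21 in cortex, set against -0.96 and -1.10 for EG against control, 2 comparisons that share no array. The difference between them is the interaction of EG with phlorizin, for which 1 array per group leaves no test.

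The 4 genes lower by 1 or more in the outer medulla were Ehhadh at -1.54, Fabp3 at -1.16, Acat1 at -1.15 and Pex11a at -1.10, and Angptl4 was higher by 1.36. For Cpt1b the EG difference was -0.70 with phlorizin and -2.96 without it in outer medulla, and -0.16 and -2.04 in cortex. For Acsl1 it was -0.71 with phlorizin and -2.82 without it in the outer medulla, and 0.03 with and -1.61 without in the cortex. Ehhadh gave -1.54 with phlorizin and -2.43 without it in the outer medulla, and -0.21 with and -2.13 without in the cortex. The cortex values with phlorizin thus lay close to 0 for all 3 genes, while those of the outer medulla stayed below it. Acadl was an exception, with -0.80 in each arm in the outer medulla and -0.11 with and -0.05 without phlorizin in the cortex, and Pex11a had -1.10 with phlorizin and -0.67 without it in the outer medulla. Across both zones and both arms, 22 of the 35 genes had lower signals with EG each time and 3 (Acsl4, Plin2 and Angptl4) had higher signals each time, against 22.3% and 17.1% of all probe sets.

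Macrophage and injury markers were also higher with EG under phlorizin, with 3 of 14 and 5 of 9 higher by 1 or more in both zones. In the outer medulla 4 of 9 straight proximal segment markers were lower by 1 or more in this arm, with a median of -0.95, and the part of this list in the lower Ehhadh and Pex11a signals there was not tested. Of the other peroxisomal genes in the outer medulla 4 of 30 were lower by 1 or more, among them Slc27a2, an acyl-CoA synthetase of the proximal tubule, at -2.08.

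**Figure D4:**
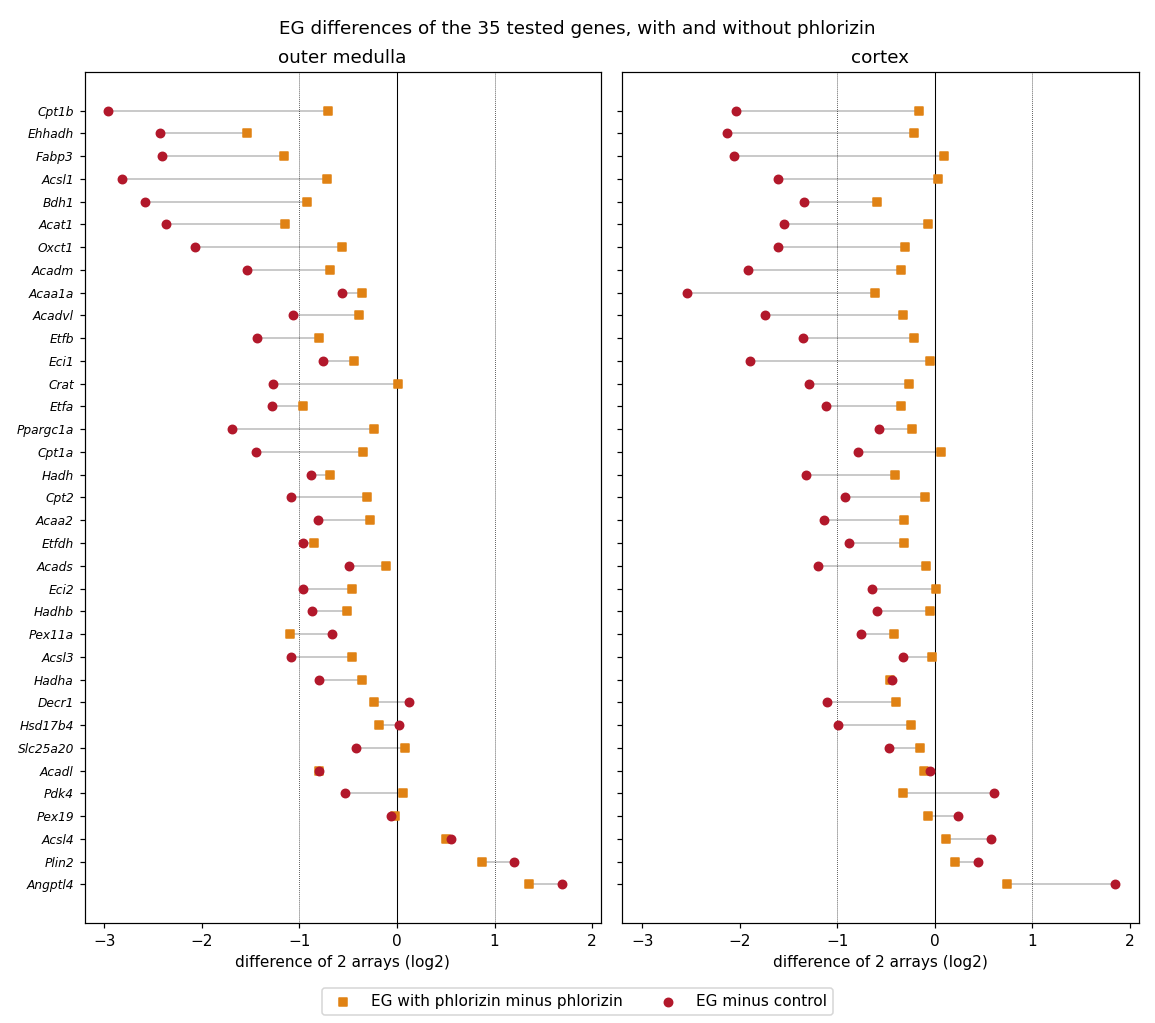
EG differences of the 35 tested genes on the log2 scale in the outer medulla (left) and the cortex (right), each the difference of 2 arrays, as squares with phlorizin (EG with phlorizin minus phlorizin) and circles without it (EG minus control), with dotted lines at 1 in either direction. The squares lie closer to 0 than the circles for most genes, and in the cortex all squares lie within the dotted lines.

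Set directly against EG, the arrays of EG with phlorizin had higher signals of the ketone body genes, Cpt1b, Acsl1 and Fabp3 in both zones. In the outer medulla 8 of 35 genes were higher by 1 or more and 0 lower by 1 or more, against 3.35% and 4.34% of all probe sets. The cortex had 16 higher by 1 or more and 0 lower by 1 or more, against 7.35% and 6.18%, and 17 and 0 after centring each array, since the array medians differed by -0.12 here. The genes higher by 1 or more in both zones were Cpt1b, Bdh1, Acat1, Oxct1, Acsl1 and Fabp3, 6 of 35, against 1.15% of all probe sets, and none was lower by 1 or more, against 1.71%. This comparison shares the EG array with EG against control and the array of EG with phlorizin with the comparison under phlorizin, so that an error of the EG array enters the first pair with opposite sign.

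Cpt1b differed by 2.45 in outer medulla and 1.65 in cortex, which is 5.46 and 3.15 times its EG signal. Acsl1 differed by 1.93 and 1.27, Bdh1 by 1.70 and 1.29, Oxct1 by 1.50 and 1.14, Fabp3 by 1.15 and 1.75, and Acat1 by 1.10 and 1.24. Zones parted for other genes. Acads differed by -0.23 in outer medulla and 1.41 in cortex, Pex11a by -0.70 and 1.08, and Angptl4 by 0.80 and -0.94. Pdk4 and Ppargc1a differed by 1.55 and 1.04 in the outer medulla and by 0.08 and 0.13 in the cortex. Ppara differed by 1.25 and 3.53. Thick ascending limb markers were higher by 1 or more in both zones for 4 of 9, and macrophage markers lower by 1 or more for 4 of 14. Straight proximal segment markers were lower by 1 or more in the outer medulla for 7 of 9 and higher by 1 or more in the cortex for 6 of 9, the same directions as Pex11a and Acads, and their part was not tested.

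The phlorizin arrays lay within 1 of control for all of the 35 genes but Pdk4 and Angptl4. Against control, 1 of 35 genes was higher by 1 or more in the outer medulla (Angptl4, at 1.14) and 1 in the cortex (Pdk4, at 1.01), and none was lower by 1 or more, against 0.577% and 0.205% of all probe sets in outer medulla and 0.653% and 0.501% in cortex. No gene passed in both zones, where 0.0304% of all probe sets were so much higher and 0.0152% lower. Pdk4 had 10.72, 9.17, 10.66 and 9.70 in the outer medulla under EG with phlorizin, EG, phlorizin and control, and 8.91, 8.84, 9.24 and 8.23 in the cortex. In the outer medulla both phlorizin arrays were higher than both others, and in the cortex the arrays of EG with phlorizin and EG lay 0.08 apart. The Angptl4 difference was 0.16 in the cortex, and Pex11a differed by -0.27 and 0.74.

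Over both levels of EG, limma called 0 of the 35 genes and 0 of the 13163 probe sets for phlorizin, and at an unadjusted p under 0.05 it gave Pdk4 at 0.90 (SE 0.21, limma adjusted p = 0.995) and Bdh1 at 0.90 (SE 0.32, limma adjusted p = 0.995), against 1.53% of all probe sets higher and 2.02% lower. For Bdh1 the phlorizin difference was 1.70 with EG and 0.04 without it in outer medulla, and 1.29 and 0.55 in cortex.

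Other genes of the same pathways were listed as well. Of 21 tested mitochondrial oxidation genes outside the list, 10 were lower by 1 or more and 2 higher by 1 or more under EG than in control in outer medulla, and 15 and 1 in cortex. Echs1, the enoyl-CoA hydratase of short chains, differed by -2.60 and -1.96, and Acadsb, a dehydrogenase of short branched chains, by -2.68 and -1.72. Ucp2, a carrier of the inner mitochondrial membrane that macrophages also express, was the gene of this list higher in both zones, at 1.30 and 3.29. In the limma EG fit 0 of the 21 were called, and 1 higher and 12 lower had an unadjusted p under 0.05. With phlorizin the EG differences of Echs1 were -1.13 and -0.39 and those of Acadsb -0.80 and -0.46.

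Storage and synthesis genes had EG differences nearer 0 in their medians than the oxidation genes, with no test of that difference. The medians of 16 fatty acid synthesis genes under EG were -0.16 in outer medulla and -0.28 in cortex, and those of 12 lipid droplet and lipolysis genes -0.35 and -0.06. Scd2, a fatty acid desaturase, was 1.20 and 2.55 higher, and Dgat2, which completes triglyceride synthesis, differed by -2.01 and -1.27. Fasn, the fatty acid synthase, differed by 0.06 and -0.54. Among uptake genes Lpl, the lipoprotein lipase that Angptl4 inhibits, differed by -3.12 in outer medulla and 1.51 in cortex, and Fabp4, a binding protein of fat cells, endothelium and macrophages, by -0.22 and 3.03. Of the other 4 tested adipose markers, Cidea differed by -3.71 and 1.24, Lipe by -1.11 and 0.25, Cidec by 0.51 and -1.12, and Adipoq by 0.72 and 0.19. Of 10 adipose markers 5 to 7 were above background on each array, while Ucp1, Lep and Cfd lay between 3.16 and 6.01 and were not tested. Mitochondrial biogenesis genes, 11 in number, had medians of -0.49 and -0.55, and limma called 0 of them for EG, with 2 at an unadjusted p under 0.05.

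**Figure D5:**
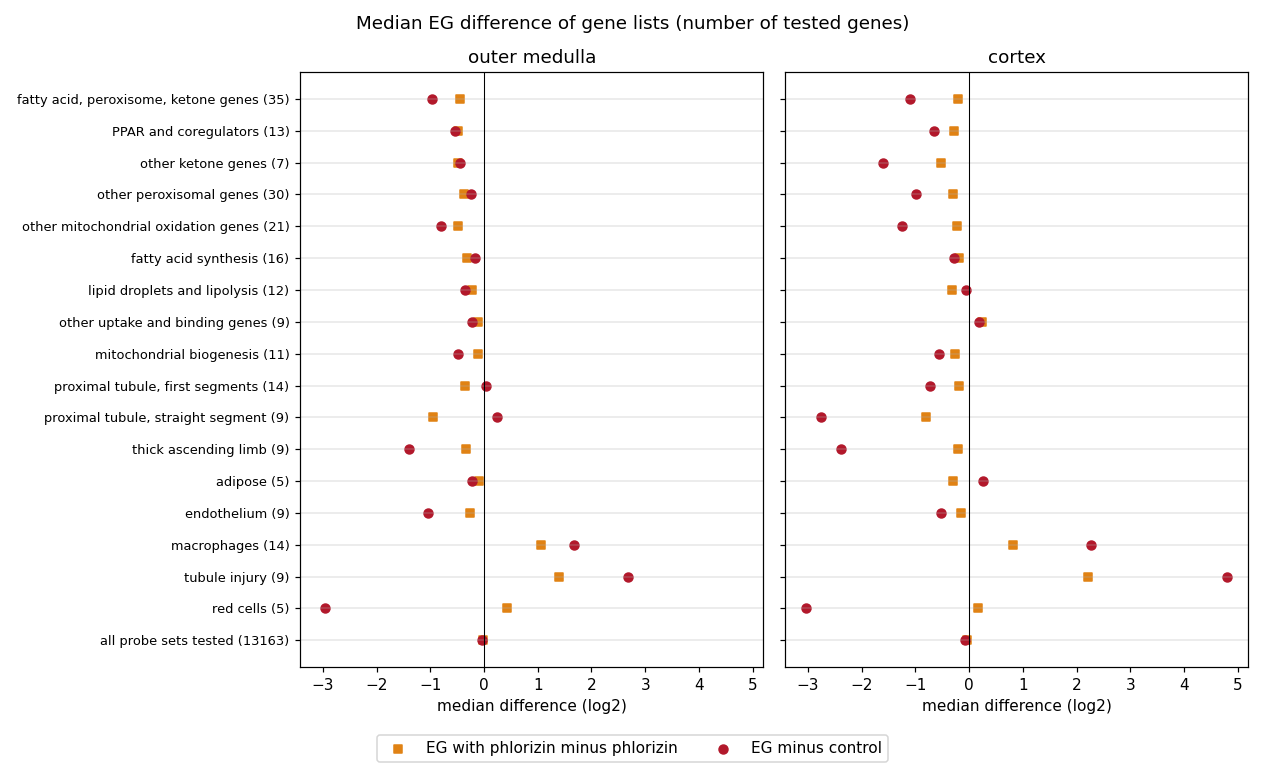
Median EG differences on the log2 scale of the 35 genes, of 8 other pathway lists, of the marker lists and of all tested probe sets, with the number of tested genes in brackets, in the outer medulla (left) and the cortex (right); squares are with phlorizin and circles without it. Circles of the 35 genes lie at -0.96 and -1.10, and those of the injury and macrophage lists lie on the other side of 0.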

How the data were processed

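RNA of 2 kidney zones under 4 treatments was measured on Clariom S rat arrays, 1 array per group. The authors deposited log2 expression values that RMA produced, per the submitters' processing notes, and the log2 base was inferred from their range, 2.28 to 19.7. The software version and annotation build of that step are not given in the sources used here. All 8 value columns were mapped to samples by their labels, and 0 were left unmapped. Of 24834 probe sets, 1646 controls were left out, leaving 23188, and 15049 of those carried a gene name. The 13163 probe sets whose highest value reached the median of all values, 7.54, were tested without further normalization.

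The 2-sided tests came from limma 3.58.1 (R 4.3.3), Benjamini-Hochberg adjusted over all tested probe sets, with a threshold of 0.05. The zone fit took all 8 arrays and had treatment as its block. EG and phlorizin were fitted as additive terms on 4 zone-mean profiles, and unequal EG effects on the 4 zone differences. Arrays of 1 treatment can share animals, and no group had replicate arrays. The p-values of the zone fit measure the spread of the zone difference among treatments, which may be technical. Those of the fits on profiles and on zone differences measure the departure from additive effects of EG and phlorizin, which may also be technical. Differences within a zone were counted at 1 or more on the log2 scale, without a test. The fits were tested on simulated data. The number of arrays limits the precision of each value.

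Every gene of the list is named. Other pathway genes were drawn from a set chosen in advance and from up to 3 per list with the largest difference in both zones. Several of these are left out, among them Cat, Crot, Slc22a5, Fabp5 and Pnpla2. The genes and lists were chosen with earlier results of these data known. Ucp2 and the adipose genes named fall outside that rule and were chosen after their values were seen. Promoter sequences are those of RefSeq on GRCr8. Python 3.11.15, pandas 2.3.3, numpy 2.4.6 and matplotlib 3.10.9 were used.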

Additional observations from a re-analysis of the deposited data

Results flagged for a closer look

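Acox2, the branched-chain acyl-CoA oxidase of peroxisomes, had opposite EG differences in the zones, 1.03 in outer medulla and -1.82 in cortex. It had 6.55 under EG against 5.52 in control in the outer medulla, and 4.67 under EG against 6.49 in control in the cortex. With phlorizin the EG differences were 1.59 and -0.35. The difference between zones was not tested, because Acox2 did not pass the filter on dim probe sets, and the lower value of each pair lies at or below the background mean.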

How the results depend on the processing

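Leaving out 1 treatment at a time gave 6 to 9 genes called higher and 17 to 21 called lower in the outer medulla, and no call was lost without the EG arrays. Without the treatment block 4 were called higher. No called zone difference changed direction under any alternative run. Without the block 12 calls were lost, those of Acadvl, Acsl1, Angptl4, Cpt1a, Cpt2, Crat, Etfa, Etfb, Fabp3, Hadhb, Oxct1 and Plin2. The EG calls depended on the fit, among all probe sets too. They were 1 higher and 11 lower with 8 arrays and the treatment as a random block (830 and 862 of all 13163 probe sets), 1 and 2 after centring each array (456 and 335), 1 and 1 without the filter (400 and 231 of 23176), 1 and 1 in the outer medulla alone (237 and 118), and 0 and 0 in the cortex alone (6 and 1), against 0 and 0 (5 and 0). Leaving out 1 profile of the EG fit left no residual degree of freedom and was not run. The labels give no replicate numbers, and the pairing used was that of both zones within a treatment, the block of the zone fit.

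Counts within zones moved with the size counted, given as outer medulla, cortex, both zones. The share of all probe sets was taken at a size of 1 and with the main filter only. Whether the counts below exceed a general shift is therefore not shown. At 0.5 on the log2 scale, only the counts that moved most are given. EG against control gave 27 lower in the outer medulla, 3 higher in the cortex, and 2 higher and 23 lower in both. The genes lower in the cortex, 18 at a size of 1, also rose in number, by a smaller factor. EG with phlorizin against phlorizin gave 2 higher and 15 lower in the outer medulla, 1 higher and 2 lower in the cortex, and 1 of each in both. EG with phlorizin against EG gave 18 higher and 1 lower in the outer medulla, 1 lower in the cortex and 13 higher in both. The genes higher in the cortex, 16 at a size of 1, again rose in number by a smaller factor. Phlorizin against control gave 3 higher and 2 lower in each zone and 1 higher in both. At 2, EG against control gave 7, 4 and 3 lower and 0 higher, EG with phlorizin against EG gave 1, 0 and 0 higher, and the other 2 comparisons gave 0. With the 30 genes whose lowest value reached the median, EG against control gave 1, 0 and 0 higher, and EG with phlorizin against phlorizin and phlorizin against control gave 0 higher in the outer medulla. Cpt1b, Acads, Eci1, Pex11a and Angptl4 fail that filter.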
